A study of Mus musculus with 9 samples.

Results

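The genes described here are 10 neuropeptide genes, Avp, Oxt, Npy, Cck, Sst, Penk, Tac1, Cartpt, Vip and Scg2, taken by name from the 18634 genes of the count table. Neuropeptides are made as larger precursors, cut by convertases inside dense core vesicles and released from nerve terminals, dendrites or endocrine cells to act on G protein-coupled receptors. Neurons that make one often devote a large part of their mRNA to it, so a few cells can hold most of the transcripts of a tissue. In the hypothalamus and brainstem several of these peptides act on arousal, feeding, body fluid and the pituitary, and in the cortex they mark classes of interneurons.

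Single-cell RNA sequencing was done on brainstem, cortex and hypothalamus of C57BL/6 mice (C57BL/6J males by the study's methods) of 9 to 11 weeks, with a unique molecular identifier (UMI) on each captured transcript so that PCR copies count once. Mice slept freely (normal sleep, NS), were kept awake for 12 h (sleep deprivation, SD) or were kept awake as long and then left to sleep (recovery sleep, RS), and tissue of all 3 groups was taken at ZT12, lights off. The labels give the recovery as 12 h in one place and as 24 h in another. Each region and group is 1 library made from 3 pooled mice, so no value has a replicate check and no p-value is given. The 9 libraries carry codes that no label explains. They are numbered 1 to 9 in table order, and the codes share their opening letters and digits within libraries 1 to 3, 4 to 6 and 7 to 9. Library 7 was taken as brainstem NS from a supplementary list of cells of that sample and not from a label. The list was held only in part, and its 1999 barcodes used here all lie in library 7, against 5 to 13 in each of the others. No region or sleep group could be given to the remaining 8, so the members are described library by library.

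The libraries held from 1522766 to 5488950 UMIs in 2575 to 3916 cells. In all, 549 cell barcodes occurred in more than 1 library, from 5 to 25 for a pair of libraries. Cells were clustered without the members and without 27 other neuropeptide genes, so that a member's level in a class did not set the class. The neuron-like class, named from neuron markers, had 3832 of the 29571 cells and 16.5% of the UMIs, and its median cell had 972 UMIs against 791 in the other cells. All 16 neuron markers were higher in it than in the other cells, Snap25 at 2920 against 81.7 CPM (counts per 1000000 UMIs of the same cells). Since the class was named from these markers, this is no independent check of the name. Of the 73 neurons listed for brainstem NS, 64 were neuron-like, and so were 3 of the 1926 other listed cells. Neuron-like cells per library ranged from 100 in library 9 to 1061 in library 3. Pituitary hormone RNA stood out in libraries 4, 5 and 6, where Gh (growth hormone) alone took 25.3%, 27.9% and 32.1% of all UMIs, against at most 0.00755% elsewhere. Each of these 3 libraries also held from 960 to 2909 pituitary endocrine-like cells. Intervals in parentheses are exact 95% intervals, Poisson for summed UMIs and Clopper-Pearson for shares, and cover counting error only.

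Avp and Oxt encode the precursors of vasopressin and oxytocin, the hormones that magnocellular neurons of the hypothalamus carry to the posterior pituitary. Their sequences are shown because the genes lie side by side and share part of their coding sequence, which bears on how their UMIs can be told apart. In GENCODE M21 on GRCm38, Avp (ENSMUSG00000037727.6) spans chr2:130580620-130582554 on the minus strand and Oxt (ENSMUSG00000027301.7) spans chr2:130576173-130577054 on the plus strand, with 3565 bases between them and no other annotated gene overlapping either. The hormone codons, with the amidation and cleavage signal after them, lie in exon 1 of 3 in both, at chr2:130582437-130582472 for Avp and chr2:130576267-130576302 for Oxt. They are printed 5′ to 3′ on the coding strand, and capitals mark the 5 of 36 bases that differ.
Avp: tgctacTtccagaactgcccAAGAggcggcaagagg
Oxt: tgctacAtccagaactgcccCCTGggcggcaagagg
The longest run of bases that both transcripts share is 127 bases of the neurophysin part, the carrier that is cut from the same precursor. It crosses from exon 1 to exon 2, between chr2:130581133-130582411 in Avp and chr2:130576328-130576715 in Oxt, and ends 307 bases before the end of the Avp transcript of 577 bases and 255 bases before the end of the Oxt transcript of 537 bases.
Shared run: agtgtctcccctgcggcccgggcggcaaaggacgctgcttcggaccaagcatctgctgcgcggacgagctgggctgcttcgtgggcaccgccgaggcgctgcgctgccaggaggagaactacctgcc
The cells with the most of either had few or no UMIs of the other. A cell of library 5 had 597 Avp UMIs and 0 Oxt UMIs, and another cell of the same library had 318 Oxt UMIs and 0 Avp UMIs. The cell with the most Oxt, of library 4, had 517 Oxt and 7 Avp UMIs, and the top Avp cell of library 6 had 458 Avp and 1 Oxt UMIs.

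Avp was counted almost entirely in 3 libraries. Its level over all cells was 182 CPM in library 4 (169 to 196), 969.9 in library 5 (928 to 1013) and 215 in library 6 (203 to 227), against 4.60, 2.59 and 3.81 CPM in libraries 1, 2 and 3. No Avp UMI was found in libraries 7, 8 and 9, where 3 UMIs would have been 0.675, 0.872 and 0.615 CPM. Library 5 is thus the highest, and the intervals of libraries 4 and 6 do not reach it. The level of library 5 was at least 1437-fold higher than that of library 7, the assigned brainstem NS library, with the latter taken at 3 UMIs. Within neuron-like cells, Avp stood at 1584 CPM in library 4, 6054 in library 5 and 5535 in library 6. Without the top cell of each, libraries 5 and 6 stood at 3799 (3565 to 4044) and 2963 CPM (2712 to 3230). The ratio of library 5 to library 6 was thus nearer to 1 within neuron-like cells, which were 15.2% of the cells of library 5 and 4.60% of those of library 6.

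A handful of cells carried this signal. In library 5 a neuron-like cell with 597 of its 1908 UMIs from Avp held 29.0% of the library's Avp, and a cell with 246 of 647 UMIs had the highest share of any cell, 38.0%. In library 6 the cell with the most had 458 of 1784 UMIs, 38.9% of that library's Avp, and the next had 360 of 1727. The highest in library 4 had 113 of 1195 UMIs. Without its top cell, library 5 stood at 689 CPM, library 6 at 131 and library 4 at 154, so that libraries 4 and 6 changed their order. Over all libraries, 10 cells held 58.6% of the 3985 Avp UMIs.

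Oxt followed Avp in 2 of these 3 libraries. Its level was 163 CPM in library 4 (151 to 176), 226 in library 5 (206 to 247) and 4.92 in library 6 (3.24 to 7.16), but at most 2.07 CPM in the other 6, with no UMI in libraries 7 and 8. Library 6, where Avp was 215 CPM, thus had hardly any Oxt, and no cell of it had more than 7 Oxt UMIs. In library 4 a single neuron-like cell with 517 of 2996 UMIs held 79.8% of the Oxt UMIs, and in library 5 a cell with 318 of 2207 held 66.3%. Without those cells the levels were 33.1 and 76.4 CPM. Of the 1166 Oxt UMIs of all libraries, 10 cells held 87.9%. The level of either hormone in a library thus rested on a few captured cells, and how much it would vary between captures was not measured.

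Some neuron-like cells had both hormones. Since the libraries differ in their neurons, shares in the cells compared with were weighted to the libraries of the cells with the member (library-weighted shares, here and in what follows). Of 122 neuron-like cells with an Avp UMI, 15 had an Oxt UMI, 12.3% (7.05 to 19.5), against a library-weighted 1.20% of those without Avp. Free RNA was not separated from this count. All 37 neuron-like cells with at least 1% of their UMIs from Avp lay in libraries 4, 5 and 6. Of them, 11 had a UMI of Otp and 6 of Sim1, transcription factors needed to form these neurons, 29.7% (15.9 to 47.0) and 16.2% (6.19 to 32.0). The library-weighted shares in the remaining neuron-like cells were 5.26% and 1.64%. Of the 8 such Oxt cells, 4 had Otp and 3 had Sim1. Galanin (Gal) and prodynorphin (Pdyn), peptides known to be made with vasopressin, each had a UMI in 6 of the 37 Avp cells, 16.2% (6.19 to 32.0), against 5.33% and 2.49%. Gad1 (GABA synthesis) had no UMI in any of the 37, against 12.1%. Otp, Sim1, Pdyn and Gad1 were picked with their values in view, as were the partner genes named below. Their shares are examples and not a tally of partner genes.

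**Figure D1:**
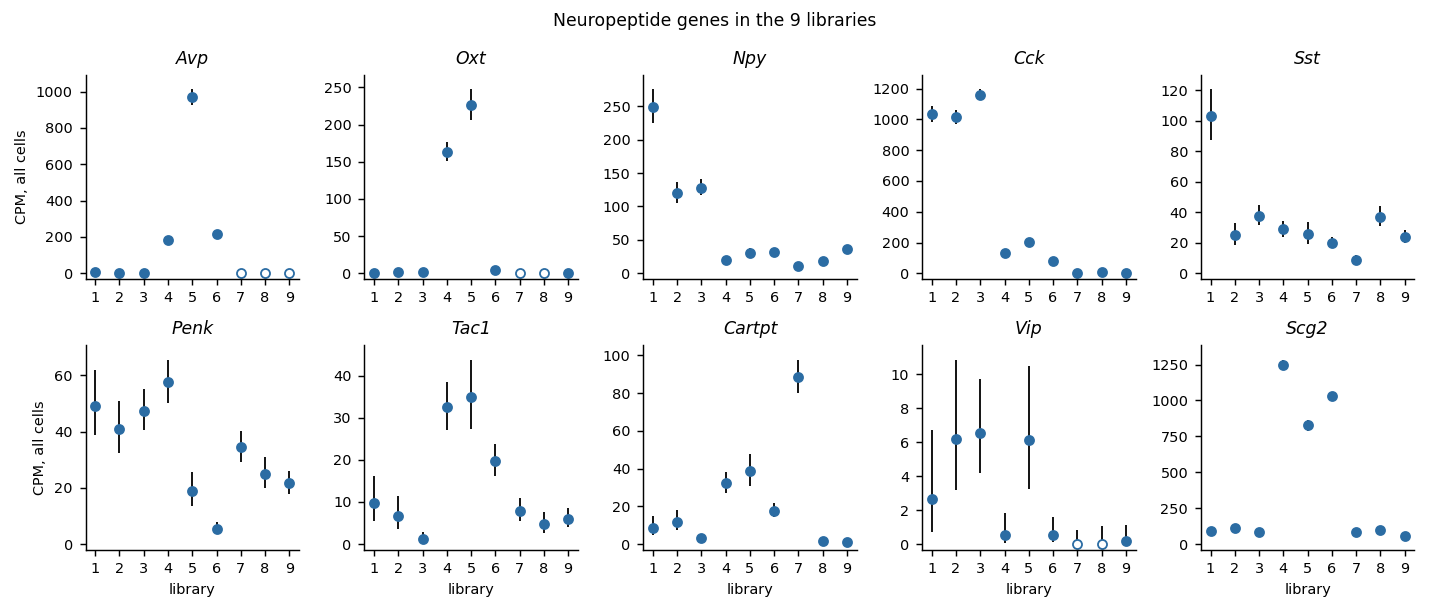
CPM over all cells (y axis, from 0) of each of the 10 genes in libraries 1 to 9 (x axis), with exact 95% Poisson intervals as vertical lines. Open points are libraries with 0 UMIs. Avp, Oxt, Tac1 and Scg2 peak in library 4 or 5, Cck in library 3, Npy and Sst in library 1, and Cartpt in library 7.

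All 10 members ranged at least 10-fold between their highest and lowest library, taking a library under 3 UMIs at 3 UMIs. Of the 14251 genes with at least 50 UMIs, 20% did so. The ratio was 10.5 for Penk, 11.8 for Sst and 258 for Cck. For Avp and Oxt the ratio is a lower bound. Vip had 12.0 against the 3 UMIs of library 6, but at least 9.69 against library 7, which had none. Without the top cell of each library the ratio of Sst was 6.72 and that of Penk 10.7, and Vip ranged at least 3.78-fold, its lowest library being taken at 3 UMIs. These ratios compare single libraries of unknown region and sleep group, in which the share of neuron-like cells ran from 2.69% to 38.7%.

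Npy, neuropeptide Y, is made by cortical interneurons and by the hunger-driving neurons of the arcuate nucleus. It stood at 249 CPM in library 1 (224 to 275), 119 in library 2 and 128 in library 3, and between 11.7 and 36.1 CPM in libraries 4 to 9. Within neuron-like cells library 1 stayed high at 522 CPM (469.8 to 579), but library 6 reached 494 CPM (396 to 610), and these intervals overlap. A single cell had 57 of the 87 UMIs of library 6, and without the top cell of each the levels were 383 CPM (338 to 432) in library 1 and 172 CPM (116 to 245) in library 6. Of the 26 cells with at least 1% of their UMIs from Npy, all were neuron-like, with up to 108 UMIs in a cell of library 3. Most had transcripts of GABA synthesis, as 20 of 26 had a UMI of Gad1 and 21 of Gad2, against library-weighted shares of 4.36% and 5.35% in the other neuron-like cells. Agrp, the peptide of the arcuate hunger neurons, had a UMI in 5 of the 26 and in 0.202% of the others. Of the 26 cells, 20 lay in libraries 1 to 3, where Agrp had no UMI, and 6 in libraries 4 to 6. All 5 cells with Agrp were therefore among those 6.

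Npy was also found outside neurons, mostly in ependymocyte-like cells (EPC), the ciliated lining of the ventricles. They held 19.3% of all Npy UMIs, and no such cell was found in libraries 1, 2 and 3. In the other 6 the level in ependymocyte-like cells ran from 44.9 CPM in library 7 (27.4 to 69.4) to 172 in library 6 (136 to 214), which do not overlap. It was 140.3 CPM in library 4, where neuron-like cells had 140.7, and 104 in library 5, where they had 138. Neuron-like cells of library 6 had 494 CPM, but the 172 CPM without their top cell is the level of the ependymocyte-like cells there. In library 7 neuron-like cells had 48.9 CPM and astrocyte-like cells 54.1 (29.6 to 90.8). In library 8 ependymocyte-like cells had 89.5 CPM (67.2 to 117) and neuron-like cells 34.8 (14.0 to 71.6), and in library 9 they had 108 (89.97 to 129) and 80.8 (43.0 to 138), with intervals that overlap in both. Tanycyte or pituicyte-like cells of library 9 had 112 CPM (51.4 to 213) from 9 UMIs. No ependymocyte-like cell had more than 6 Npy UMIs. In library 9, 12.9% of the ependymocyte-like cells had an Npy UMI, against 3.10% of astrocyte-like cells. At 500 UMIs per cell the shares were 5.20% and 1.69% there, against 0.184% in microglia-like cells and 0.302% in endothelial-like cells.

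Sst, somatostatin, an inhibitory peptide of interneurons and of hypothalamic neurons that hold back growth hormone, was present in every library. Its level was lowest in library 7, 8.77 CPM (6.24 to 12.0), had a median of 25.9 CPM, and was highest in library 1, 103 CPM (87.6 to 121). A cell of library 1 with 88 of 2594 UMIs held 56.1% of that library's Sst, and without it the level was 45.4 CPM. Within neuron-like cells the order was different, as libraries 9, 6 and 8 were highest at 596, 579.7 and 561 CPM and library 2 lowest at 32.7 CPM. Without the top cell of each, libraries 9, 6 and 8 were at 411, 377 and 459 CPM, with intervals that overlap. The share of neuron-like cells with an Sst UMI differed more than the share of all cells with one, from 0.943% to 15.2% against 0.536% to 0.893%.

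Some cells had both Sst and Npy. Of 121 neuron-like cells with an Sst UMI, 21 had an Npy UMI, 17.4% (11.1 to 25.3), against a library-weighted 3.42% of those without Sst. Of the 19 neuron-like cells with at least 1% of UMIs from Sst, 10 had an Npy UMI, 52.6% (28.9 to 75.6), against a library-weighted 4.21%. In the other direction, 3 of the 26 neuron-like cells with at least 1% Npy had an Sst UMI, 11.5% (2.45 to 30.2), against 2.27%, just under the lower end of the interval. The 3 cells with the most Sst had 10, 17 and 19 Npy UMIs beside 88, 78 and 66 Sst UMIs, in libraries 1, 3 and 4. Cort, cortistatin, a relative of Sst made by some of the same interneurons, had a UMI in 4 of the 19 Sst cells and 5 of the 26 Npy cells, and in a library-weighted 0.229% and 0.371% of other neuron-like cells.

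Cck, cholecystokinin, a peptide of many cortical pyramidal cells and of some interneurons, was spread over many cells rather than held by a few. It stood at 1032, 1017 and 1160 CPM in libraries 1, 2 and 3, at 133, 204 and 79.8 CPM in libraries 4, 5 and 6, and at 4.50, 5.52 and 5.13 CPM in libraries 7, 8 and 9. In library 3, 74.6% of neuron-like cells had a Cck UMI, and the top cell held 0.798% of that library's Cck. The 10 cells with the most held 10.0% of all Cck UMIs. Most came from both clusters led by Nrgn and Slc17a7, genes of excitatory cortical neurons, at 1963 and 1899 CPM. Within neuron-like cells Cck was highest in library 1 at 2158 CPM and lay between 65.4 and 149 CPM in libraries 4 to 9. Among neuron-like cells with Npy, 25.4% (18.1 to 33.9) had a Cck UMI, under the library-weighted 40.4% of those without Npy. For Cartpt the share was 21.2% (14.6 to 29.2), against 15.1%, and for Avp 22.1% (15.1 to 30.5), against 15.2%. For Sst, Tac1, Oxt, Penk and Vip the shares were 19.8%, 6.34%, 23.5%, 46.7% and 33.3%, against 20.6%, 9.71%, 19.7%, 44.3% and 46.7%. The library-weighted shares lie inside the intervals for all of these but Npy, and so no one direction was shared by the peptides. Scg2 cells had Cck in 35.1% (32.2 to 38.1), against 28.2%.

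In libraries 4, 5 and 6 the highest class for Cck was not the neuron-like one. Pituitary stem or folliculostellate-like cells had 800.1 CPM in library 4 (698 to 913), 2024 in library 5 (1720 to 2367) and 583 in library 6 (525 to 645), against 65.4, 149 and 79.6 CPM in neuron-like cells of the same libraries. The level rested on very few cells, as the top cells of libraries 4, 5 and 6 had 113, 72 and 171 UMIs, and 3.08%, 9.52% and 4.45% of these cells had a Cck UMI. Of the 16 cells with at least 1% of UMIs from Cck, 12 were pituitary endocrine-like or stem-like and 4 neuron-like. Those pituitary cells were large, with 7579, 7546 and 8695 UMIs in the 3 with the most Cck, while the medians of their classes were 1678 and 1030 UMIs. Whether a droplet held more than 1 cell was not resolved, since the doublet caller marked only 0.484% of all cells.

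**Figure D2:**
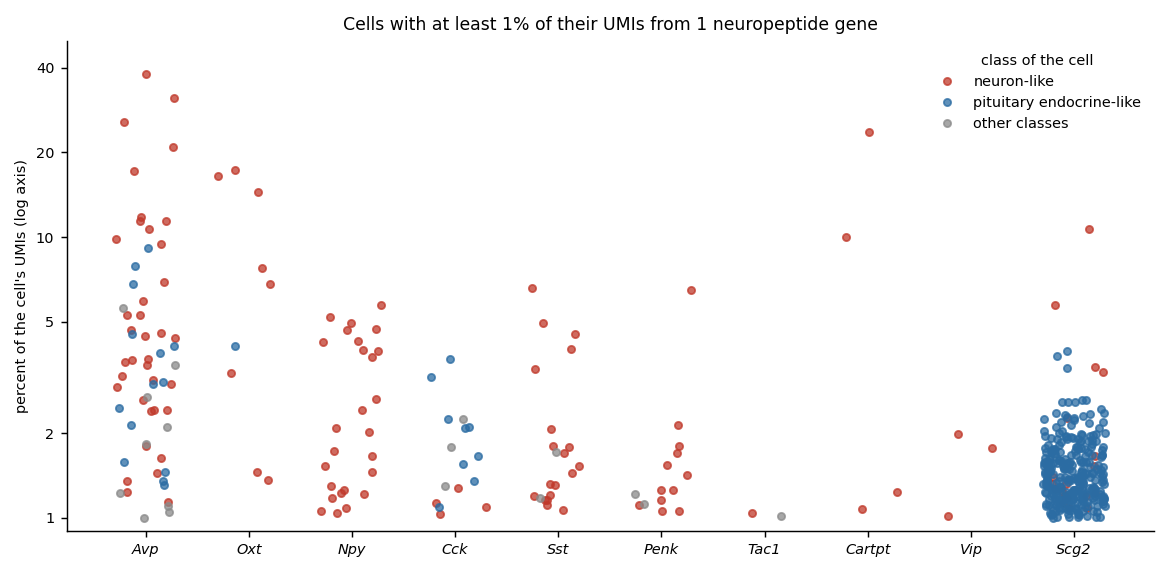
Each point is a cell in which 1 of the 10 genes (x axis) takes at least 1% of the UMIs, with that share on a log axis (y axis), coloured by class. Neuron-like cells reach 38.0% for Avp, 23.6% for Cartpt and 17.3% for Oxt, while the Scg2 points are mostly pituitary endocrine-like.

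Vip, vasoactive intestinal peptide, a peptide of cortical interneurons and of the circadian clock, was near the limit of detection with 59 UMIs in 23 cells. It was highest in libraries 3, 2 and 5, at 6.54, 6.21 and 6.13 CPM, whose intervals overlap, and had no UMI in libraries 7 and 8. The top cells of these libraries had 18, 8 and 9 UMIs, from 66.7% to 75% of each library's Vip.

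Penk, proenkephalin, the source of the enkephalin opioids, was found in every library. It was highest in library 4 at 57.5 CPM (50.3 to 65.5), near libraries 1 and 3 at 49.3 and 47.4 CPM, whose intervals overlap with it, and lowest in library 6 at 5.47 CPM (3.69 to 7.80). Neuron-like cells of libraries 7, 4 and 6 held 777, 609 and 56.8 CPM. Without the top cell of each, library 7 was at 369 CPM (282 to 475) and library 4 at 522 (444 to 610). Their order thus turned, but these intervals overlap. In brainstem NS (library 7) a neuron-like cell with 67 of 1037 UMIs held 43.8% of the Penk. Library 4 had 9 cells at 1% or more, of at most 27 UMIs. Ppp1r1b, the phosphoprotein of neurons that receive dopamine, had a UMI in 7 of the 12 such neuron-like cells of all libraries and in a library-weighted 6.39% of the other neuron-like cells. Fibroblast or leptomeningeal-like cells came next to neuron-like cells for Penk, at 53.5 CPM against 139. Their level was 221 CPM in library 3 (118 to 379), from 13 UMIs only, against 67.5 in neuron-like cells (57.2 to 79.0). In library 2 it was 179 (65.8 to 390.1), from 6 UMIs, against 69.5 (53.8 to 88.4). In library 1 it was 117 (24.1 to 342), from 3 UMIs, against 92.9 (71.5 to 119). The intervals overlap in libraries 1 and 2. Fibroblast or leptomeningeal-like cells of libraries 4 and 6 had no Penk UMI. Penk overlaps A830012C17Rik on the opposite strand in M21, which matters only where strand is not kept in counting.

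Tac1, the precursor of substance P, was highest in library 5 at 34.9 CPM (27.4 to 43.8) and library 4 at 32.5 CPM, which overlap, followed by library 6 at 19.7 CPM. It was at or below 9.85 CPM in the other 6, and lowest in library 3 at 1.09 CPM. Neuron-like cells of libraries 4, 5 and 6 had 317, 241 and 409 CPM, and those of library 3 had 0.438 CPM from a single UMI. Unlike the hormones it came mostly in small numbers per cell, with 22 UMIs at most, and 1 neuron-like cell in all reached 1%.

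Cartpt, the precursor of the CART peptide that limits feeding, was highest in brainstem NS. Library 7 had 88.4 CPM (79.9 to 97.6) and libraries 4, 5 and 6 had 32.3, 38.6 and 17.7 CPM, while libraries 8 and 9 had 1.74 and 0.820 CPM. The lead of library 7 rested on 2 cells, with 226 of 959 UMIs (23.6%) and 86 of 860 (10.0%). Without the larger cell it stood at 37.6 CPM, inside the interval of library 5 (30.7 to 48.0). Both cells are neuron-like, and of the 4 neuron-like cells with at least 1% Cartpt 2 had Ucn, with 36 UMIs between them. Urocortin and CART are known from the same midbrain neurons, and no other neuron-like cell of the same 3 libraries had a UMI of Ucn. In libraries 4, 5 and 6 the Cartpt UMIs lay in 67, 61 and 54 cells of at most 13 UMIs. Among the listed cells of library 7, neurons had 7 Cartpt UMIs and the other cells 40, and in this library 93.6% of cells with Cartpt had a single UMI.

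Scg2, secretogranin II, is a granin of dense core vesicles in neurons and endocrine cells, and the source of secretoneurin. It was the exception among the members. Scg2 stood at 1247, 826 and 1031 CPM in libraries 4, 5 and 6 and between 57.4 and 109.6 CPM in the others. Pituitary endocrine-like cells held 78.0% of its UMIs, at 1498 CPM against 411 in neuron-like cells. Most of this came from 1 cluster of 578 cells led by Lhb, Cga and Fshb, the subunits of gonadotropins, where 97.9% of cells had Scg2 and the level was 9602 CPM. Within the same libraries the classes were closer, at 1844 CPM in pituitary endocrine-like and 825 in neuron-like cells of library 4, 1285 (1217 to 1356) and 1109 (985 to 1244) in library 5, and 1338 and 915 in library 6.

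Outside those libraries Scg2 was a gene of neuron-like cells, with 1834 CPM in library 7, 1485 in library 8 and 1460.2 in library 9, and 126 to 189.6 CPM in libraries 1, 2 and 3. The share of neuron-like cells with a UMI was from 14.1% to 64.0%. A neuron-like cell of library 9 with 78 of 733 UMIs had 10.6%, the highest share of Scg2 in any cell. Of the 19 neuron-like cells at 1% or more, 8 had Pnoc, the nociceptin precursor, against a library-weighted 4.50% of other neuron-like cells. Among neuron-like cells with another member, Scg2 had a UMI in 54.5% of Sst, 55.3% of Cartpt, 54.2% of Tac1, 43.0% of Penk and 20.9% of Cck cells. The library-weighted shares in neuron-like cells without those genes were 41.4%, 39.0%, 44.8%, 28.4% and 13.3%, each under the interval of the cells with the gene. For Npy and Vip the shares were 38.1% and 50% against 29.8% and 27.6%, the first of which is just inside the interval (29.6 to 47.2) and the second inside a wide one (21.1 to 78.9). Avp cells had Scg2 in 40.2% against 40.4%, and Oxt cells in 26.5% (12.9 to 44.4) against 38.8%. In the 37 neuron-like cells with at least 1% Avp it was 21.6% against 45.1%. The depth of these cells was not matched.

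**Figure D3:**
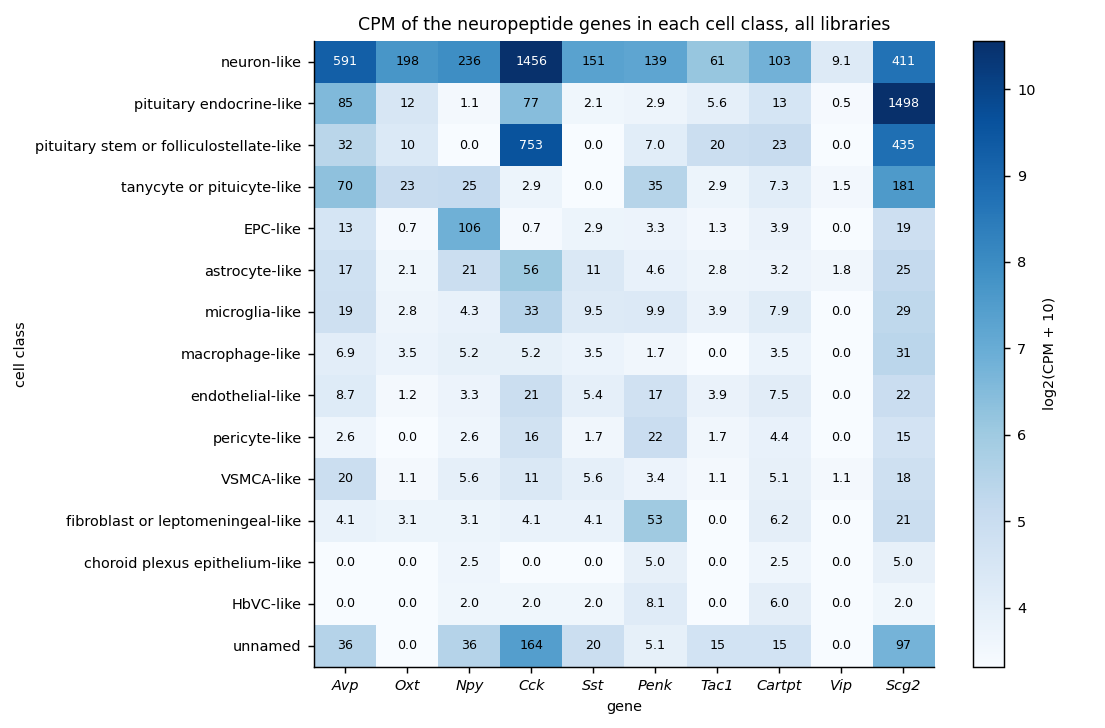
CPM over all libraries (printed in each box, colour on a log2(CPM + 10) scale) of the 10 genes (columns) in the 14 named cell classes and the unnamed cells (rows). Neuron-like cells are darkest in 9 columns, and pituitary endocrine-like cells for Scg2.

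Over all libraries, 9 of the 10 members had their highest level in neuron-like cells, against 30.5% of the genes with at least 50 UMIs. Within libraries the order was less uniform, as counted among classes of at least 50 cells in the library. Neuron-like cells were the highest class in all 6 libraries with Avp, in 8 of 9 for Sst, in 6 of 9 each for Npy, Cartpt, Cck, Penk, Tac1 and Scg2, in 5 of 7 for Oxt and in 4 of 7 for Vip. The exceptions not named above were Oxt in libraries 1 and 9, Sst in library 2, Cartpt in libraries 2, 3 and 8, Penk in library 5, Tac1 in libraries 1, 2 and 3, and Vip in libraries 1, 2 and 4. Some smaller classes stood higher than neuron-like cells in further libraries, as the 46 fibroblast or leptomeningeal-like cells of library 1 did for Penk. Summed over libraries, only Scg2 had over 50% of its UMIs outside neuron-like cells, while 87.6% of those genes did. Between 12.0% (Oxt) and 29.2% (Cartpt) of the UMIs of the other 9 lay outside, and the median over members was 23.9% against 79.8% over genes. Every member had at least 1 cell in which it took 1% or more of the UMIs, as did 5.47% of genes. Such a cell was found in 41 of the 90 pairs of a member and a library. The share of such pairs over all genes was not computed. For Avp, Oxt and Vip, 10 cells held over 50% of all UMIs, which was so for 0.211% of genes. The median share held by 10 cells was 46.3% over members and 4.33% over genes. Of the 451 pairs of a member and a cell at 1% or more, 133 were in neuron-like and 301 in pituitary endocrine-like cells, and without Scg2 114 of 155 were in neuron-like cells.

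Most cells with a member outside the neuron-like class had a single UMI of it. Of 405 cells with Avp outside the neuron-like class, 353 had 1 UMI, as did 100 of 106 for Oxt and 93 of 101 for Sst. For Npy it was 224 of 316, for Cck 250 of 344 and for Scg2 1391 of 2664. In libraries 7, 8 and 9, where no Avp was counted in neuron-like cells, no cell of any class had one. In libraries 4, 5 and 6 each class of at least 50 cells had some. In library 5 the share of cells with an Avp UMI, each cell thinned to 500 UMIs, was 13.7% in neuron-like cells (9.55 to 18.8), 5.26% in astrocyte-like, 9.09% in microglia-like and 2.50% in endothelial-like cells, classes that should lack the gene. Their medians before thinning were 547, 390, 417 and 449.5 UMIs, and 16.1%, 4.17%, 8.26% and 4.81% of cells had a UMI then. Before thinning the neuron-like interval (12.7 to 20.02) lay above those of astrocyte-like (2.02 to 7.53) and endothelial-like cells (2.33 to 8.66), and overlapped with that of microglia-like cells (3.85 to 15.1). After thinning, which left 38 astrocyte-like and 33 microglia-like cells, it lay above that of endothelial-like cells (0.304 to 8.74) and overlapped with the other two. In library 6 the thinned shares were 2.78% in neuron-like, 3.85% in microglia-like and 2.50% in endothelial-like cells, from 5 of 180, 1 of 26 and 2 of 80 cells, too few to show a difference.

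For Cck the classes lay further apart. In libraries 1, 2 and 3 the thinned share was 56.7%, 52.4% and 49.0% in neuron-like cells, and from 0.435% to 9.80% in astrocyte-like, microglia-like and endothelial-like cells. For Scg2 in libraries 4, 5 and 6 neuron-like cells had 27.7%, 35.5% and 37.8%, and the highest share in those other classes was 15.2%, in the microglia-like cells of library 5. In 20 of the 24 pairs of a member and a library with a UMI in at least 5 such cells, intervals of the astrocyte-like, microglia-like and endothelial-like shares overlapped. The exceptions were Cck in library 1, Npy in library 7, Penk in library 3 and Scg2 in library 5. Astrocyte-like cells were the highest for Npy in library 7, at 1.97% against 0.102% and 0.106%, and microglia-like cells for the other 3. With as few as 5 cells that have a UMI, overlap does not show that shares are alike. The tally was not made over other genes.

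**Figure D4:**
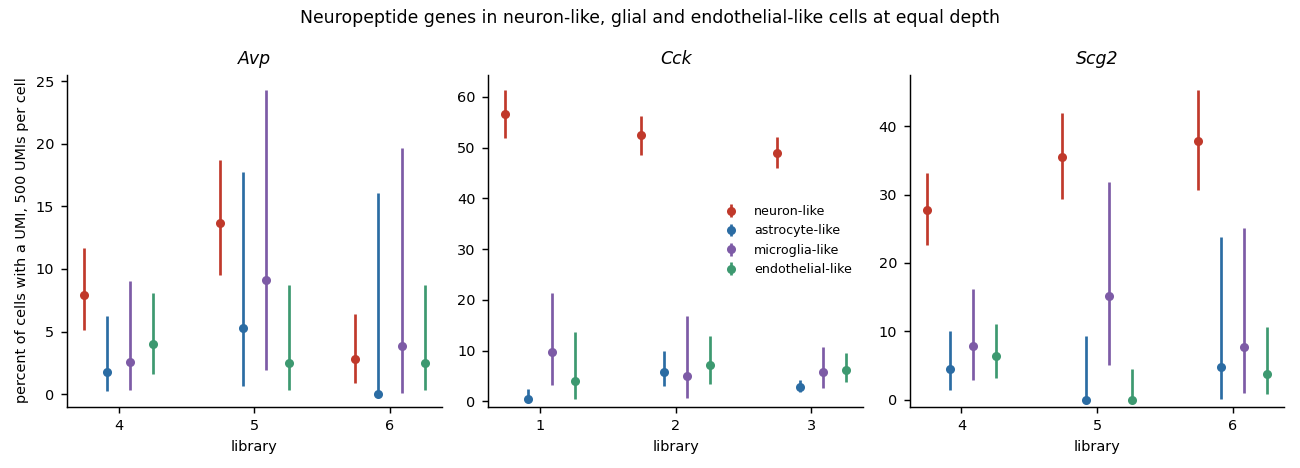
Percent of cells with at least 1 UMI after thinning each cell to 500 UMIs (y axis) for Avp, Cck and Scg2 in 3 libraries each (x axis), by class, with exact 95% Clopper-Pearson intervals. Neuron-like cells stand clear of the glial and endothelial-like cells for Cck, and overlap with some of them for Avp.

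The proportion of Avp to Oxt was compared between classes. In library 4, Avp made up 46.3% of the Avp and Oxt UMIs of neuron-like cells (43.3 to 49.4) and 73.3% of those of the other cells (68.2 to 78.0). In library 5 the shares were 78.1% (76.2 to 79.8) and 93.1% (90.6 to 95.2), and in library 6 98.9% (98.0 to 99.4) and 92.7% (88.5 to 95.8). The intervals do not overlap in these 3 libraries, but they count UMIs as independent, while most UMIs of neuron-like cells came from a few cells with mostly 1 of the hormones. They therefore do not bear on whether the UMIs of the other cells had 1 source. The cell with 517 Oxt UMIs set the value of library 4, where neuron-like cells without it were at 91.6% (88.8 to 93.8), above the other cells. In library 5, pituitary endocrine-like cells had 92.2% (88.8 to 94.8), microglia-like 93.5% (78.6 to 99.2), vascular smooth muscle-like 94.1% (80.3 to 99.3), astrocyte-like 95% (75.1 to 99.9) and tanycyte or pituicyte-like cells 96.3% (81.0 to 99.9), while ependymocyte-like and endothelial-like cells had 22 and 10 Avp UMIs and no Oxt UMI. The remaining classes there had at most 7 Avp UMIs each. Neuron-like cells in which each hormone took under 1% of the UMIs had 85.2% in library 4 (66.3 to 95.8), 92.3% in library 5 (83.0 to 97.5) and 81.2% in library 6 (54.4 to 96.0), and in all 3 libraries these intervals overlap with those of the other cells. They rest on 23, 60 and 13 Avp UMIs and 4, 5 and 3 Oxt UMIs. In library 4 the tanycyte or pituicyte-like cells had 48.0% (27.8 to 68.7), on 25 UMIs, and pituitary endocrine-like cells 74.3% (67.7 to 80.1).

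**Figure D5:**
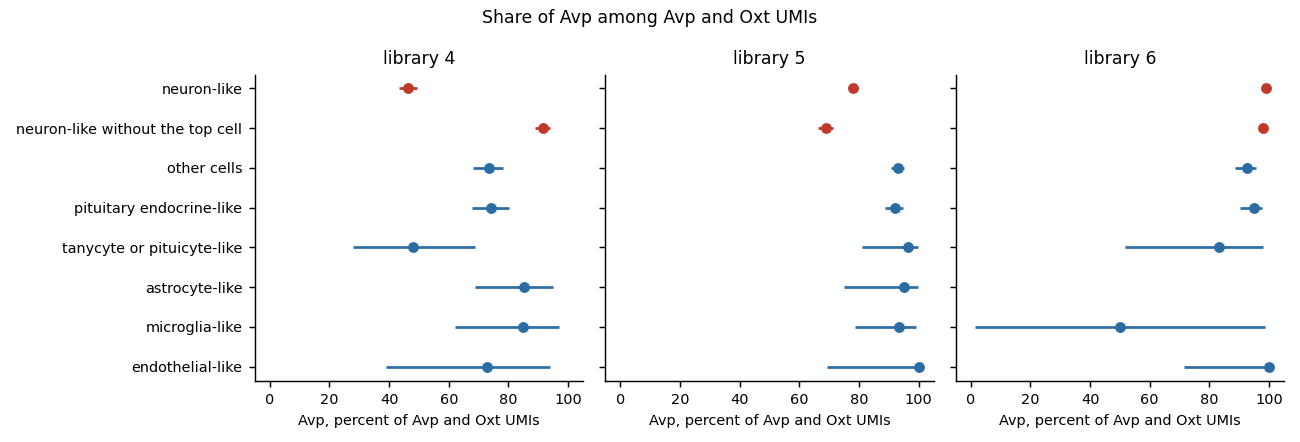
Avp UMIs as a percent of Avp and Oxt UMIs (x axis) by class (y axis) in libraries 4, 5 and 6, with exact 95% intervals. The neuron-like value of library 4 moves from 46.3% to 91.6% when 1 cell is left out.

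Higher Avp counts also lay in cells of other classes. Of 60 cells with at least 1% of their UMIs from Avp, 37 were neuron-like, 14 pituitary endocrine-like and 9 of other classes. Pituitary endocrine-like cells held 306 CPM of Avp in library 5, 62.9 in library 4 and 38.7 in library 6, with up to 57 UMIs in a cell. Doublets, free RNA and expression in the cell itself cannot be told apart in these cells. Of the barcodes of high cells, 13 occurred also in another library, where the member had 0 UMIs in 11 and 1 UMI in the other two.

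The other genes of the neuropeptide pathway were taken from lists. Of 29 other precursor or peptide-binding genes 27 were in the table, with 5 to 780 UMIs. Of these, 11 had their highest level in neuron-like cells. Among the 16 with at least 50 UMIs a narrow majority was highest there, against 30.5% of all genes with that many UMIs. Those with the most UMIs were Nmb (neuromedin B), Nppc (C-type natriuretic peptide), Gal and Gnrh1 (gonadotropin-releasing hormone). Nmb and Nppc were highest in ependymocyte-like cells, at 130.3 and 71.1 CPM, and Gal in neuron-like cells at 40.9 CPM. Gnrh1 was highest in tanycyte or pituicyte-like cells, at 168 CPM, and by library stood at 129 CPM in library 5 and at most 1.51 CPM elsewhere. Of its 290 UMIs, 46.6% lay outside neuron-like cells, and 3 cells had at least 1% of their UMIs from it, one of them 8.52%.

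The 10 genes of peptide processing and dense core vesicles had a median of 79.1% of UMIs outside neuron-like cells, near the 79.8% over all genes of at least 50 UMIs. Pcsk1n (an inhibitor of the convertase PCSK1) and Chgb (chromogranin B) were highest in pituitary endocrine-like cells, at 1536 and 867 CPM. Cpe (carboxypeptidase E) was highest in astrocyte-like cells at 2299 CPM, and Pam (the amidating enzyme that finishes vasopressin, oxytocin and neuropeptide Y) in fibroblast or leptomeningeal-like cells at 922 CPM. Of 17 receptors of the member peptides 16 were in the table, with at most 436 UMIs and no cell at 1%. Npy1r was highest in vascular smooth muscle-like cells (VSMCA) at 102 CPM, Npy2r in ependymocyte-like cells at 30.5 CPM, and Cckbr and Sstr3 in neuron-like cells at 39.7 and 26.8 CPM.

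The genes most like each member across the 14 named classes were found by Pearson's r of log2(CPM + 10) among 11226 genes of at least 200 UMIs, a likeness that rests on 14 points which share libraries. They were Kif5c and Amph for Avp (r = 0.97 and 0.96), Wscd2 and Crmp1 for Oxt (0.99 for both), Lamp5 and Rbfox3 for Sst (0.99 for both), and Gm42517 and Gm10419 for Npy (0.98 and 0.96). Dscam was alike with both Cartpt (0.97) and Tac1 (0.99), beside Ypel4 (0.98) for Cartpt and Lingo2 (0.98) for Tac1. For Cck they were Arc and Sel1l3 (0.95 and 0.94), for Penk Scube1 and Kit (0.92 and 0.88), and for Vip Lin7b and Kcnip2 (0.98 for both). Scg2 was most like Resp18 and Chgb (0.99 and 0.98), which had 8718 and 9171 UMIs.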

How the data were processed

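The authors used Cell Ranger 2.2.0 and GRCm38 to turn reads into filtered UMI counts, which were deposited as 1 table with no scaling. The submitters' notes also name R 3.5.3, and the annotation release is not given in the sources used here. Papain was used to free the cells, myelin was removed with beads, and capture followed version 2 of the 10x Chromium kit, which tags transcripts at their 3′ end. The cell list behind the identity of library 7 came from a supplement to the study, held only in part.

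All 29571 cells were used. CPM is UMIs per 1000000 UMIs of the same cells. Counts were scaled to 10000 per cell, log-transformed and standardized with a limit of 10, and 13 principal components of 2000 variable genes were clustered (20 neighbours, shared-neighbour weight above 0.0667, Leiden resolution 1) into 29 clusters. A name needed 3 markers with a fold of 2 over other cells, each in 10% of the cluster's cells, and 1 cluster of 311 cells led by mitochondrial genes stayed unnamed. Names were rebuilt from markers and may differ from the study's. For shares, cells were thinned to 500 UMIs by random draws and shallower ones left out. Library-weighted shares, chosen after seeing the data, average a share over libraries by each library's number of cells with the member. Scrublet marked 143 cells (0.484%), too few for a caller that works, and all cells were kept.

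With 1 library per region and group, 6 tallies of members, pairs or libraries were made with no test. The procedure was tested on simulated data. The alternatives were cells of at least 1000 UMIs, other totals, means over cells, no top cell, resolution 0.5, neurons by markers, no doublets, no thinning, and 10 UMIs in place of 1%. The members and lists were chosen with earlier results of these data known. Besides the members, the 4 genes with the most UMIs of each list and the 2 genes most like each member were to be named. Snap25, Gh, Lhb, Cga, Fshb, Nrgn, Slc17a7, Gad1, Gad2, Otp, Sim1, Agrp, Pdyn, Cort, Ucn, Pnoc and Ppp1r1b fall outside this and were picked with their values in view. Sequences and positions came from GENCODE M21 on GRCm38, which holds all 10 members. The tools were scanpy 1.11.5, leidenalg 0.10.2, python-igraph 0.11.9, scikit-learn 1.9.0, pandas 2.3.3, scipy 1.17.1, numpy 2.4.6 and matplotlib 3.10.9 under Python 3.11.15.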

Additional observations from a re-analysis of the deposited data

How the results depend on the processing

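Of 30 alternatives, 6 left out the few cells called doublets and could hardly move a tally. Of the other 24, 21 left a tally within 1.5 times its reported value and 3 moved it, all by keeping only cells with at least 1000 UMIs. With these cells, 2 members in place of 1 had most UMIs outside neuron-like cells. Intervals of glia and vessel cells overlapped in 7 of 7 pairs of a member and a library, in place of 20 of 24. The intervals of the Avp and Oxt proportions overlapped in 1 of 3 libraries, in place of 0. The last 2 rest on fewer cells with wider intervals, so their overlap does not show that classes are alike. The tally of members ranging 10-fold was 8 without the top cell of each library, and 9 with totals free of mitochondrial, hemoglobin and pituitary hormone genes. High cells by 10 UMIs gave 37 of 90 pairs in place of 41. Without the clusters led by genes of 2 classes (694 cells), an alternative chosen after seeing the data, intervals overlapped in 18 of 21 pairs. No paired analysis was possible because each region and sleep group is 1 library and the table's columns carry no replicate number. Depth limits Vip (59 UMIs), Oxt outside libraries 4 and 5, and shares in classes under 50 cells, where intervals are wide and only large differences could show.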
